A study of Mus musculus with 6 samples.

Results

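The 6 genes described here are Hnf4a, Sox7, Sox17, Foxa1, Foxa3 and Cited1, regulators of transcription known from the visceral endoderm. They were chosen by symbol, with earlier results of these data known. The 6 are among 19938 genes named by an array feature that names exactly 1 gene, and each had 1 such feature. The visceral endoderm is the epithelium that wraps the early postimplantation embryo, takes up nutrients, makes plasma proteins and signals to the epiblast inside it. Hnf4a, Sox7, Sox17, Foxa1 and Foxa3 encode proteins that bind DNA. Cited1 encodes a co-regulator that binds the coactivators CBP and p300 and has no DNA-binding domain of its own.

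Mouse embryos of the outbred CD1 strain were collected at embryonic day 5.0 and cultured for 8 hours in a narrow cavity, 90 µm in diameter, or a wide cavity, 180 µm in diameter. The series compares culture with and without external mechanical cues, and its design text does not state outright which cavity gives the cue. Each cavity had 3 samples, called narrow 1 to 3 and wide 1 to 3 here, and the design text calls them biological replicates. Each sample was made from 30 intact embryos, so all tissues were measured as a mixture and fewer cells of a type cannot be told apart from less RNA per cell. Total RNA was labelled with biotin and hybridized to an Affymetrix Mouse Gene array, which gives 1 log2 signal per feature. The 6 arrays had medians from 7.62 to 7.67, and their number limits the precision. No measure of background was used, so a dim gene cannot be told from an absent one. Levels of different genes are not ranked here, since each feature has its own probes.

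None of the 6 factors passed the test for a difference between cavities. The largest difference was that of Foxa1, 1.12-fold higher in the narrow cavity, and its arrays did not overlap between the groups. The arrays of Hnf4a did not overlap either, with a 0.957-fold level in the narrow cavity. Foxa3 and Sox17 had higher means in the narrow cavity, and Sox7 and Cited1 had lower ones, each within the spread between pools.

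The upstream sequences of Foxa1 and Hnf4a are shown because the arrays of these 2 genes were the ones that did not overlap between cavities. They are the 250 bases before each annotated transcription start in RefSeq, on the gene's strand, 5′ to 3′, in build GRCm38.p6. Windows were found for 4 of the 6 genes, and Hnf4a has 2 of them, upstream and downstream along the gene. Capitals mark matches on either strand to 4 short motifs: TGTTTAC of FOXA proteins, CAAAGTC of the HNF4 site, AGATAA of GATA proteins and AACAAT of SOX proteins.
Foxa1, chr12:57546112-57546361, minus strand: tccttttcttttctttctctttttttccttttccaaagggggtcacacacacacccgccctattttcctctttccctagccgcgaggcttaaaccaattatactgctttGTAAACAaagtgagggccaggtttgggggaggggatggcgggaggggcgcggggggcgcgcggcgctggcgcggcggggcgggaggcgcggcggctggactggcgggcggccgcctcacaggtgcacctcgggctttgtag
Hnf4a upstream start, chr2:163506607-163506856, plus strand: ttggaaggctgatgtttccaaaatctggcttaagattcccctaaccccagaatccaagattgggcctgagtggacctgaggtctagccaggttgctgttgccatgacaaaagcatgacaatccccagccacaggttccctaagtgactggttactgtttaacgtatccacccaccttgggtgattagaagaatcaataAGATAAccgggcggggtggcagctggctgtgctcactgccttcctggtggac
Hnf4a downstream start, chr2:163546905-163547154, plus strand: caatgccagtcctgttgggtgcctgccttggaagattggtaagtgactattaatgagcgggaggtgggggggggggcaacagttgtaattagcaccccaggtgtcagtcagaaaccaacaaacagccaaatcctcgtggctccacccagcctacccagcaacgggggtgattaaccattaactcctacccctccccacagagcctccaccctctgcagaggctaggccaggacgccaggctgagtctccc

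The Foxa1 window held 1 FOXA match, starting 141 bases before the start, on the opposite strand. Such a match was in 3.17% of 32851 windows of the same length. The upstream Hnf4a window held 1 GATA match, 52 bases before the start, and 9.99% of all windows held one. The downstream Hnf4a window held 0 matches to the 4 motifs, and no match in the 3 windows overlapped another. The HNF4 motif was in 3.84% and the SOX motif in 9.42% of all windows, and neither was in the 3 windows printed. Among windows not printed, 1 of Cited1 held an HNF4 match and that of Foxa3 held 0 matches. Of 3 windows of Foxa2, a relative of Foxa1, 0 held a FOXA, HNF4 or SOX match and 1 held a GATA match. The motifs were chosen after the sequences were seen, so these matches are a description. A match describes letters only, and the array did not measure binding or which start was used.

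Hnf4a is a nuclear receptor that visceral endoderm needs to make many of its secreted proteins. Its log2 signal was 11.887, 11.952 and 11.927 in narrow 1, 2 and 3, against 11.996, 11.990 and 11.971 in wide 1, 2 and 3. All narrow arrays lay below all wide arrays, although the gap between the nearest pools was small. The mean was 11.92 ± 0.03 in narrow and 11.99 ± 0.01 in wide cavities (SD, n = 3 each). The difference, narrow minus wide, was -0.06 ± 0.04 (SE) with a 95% interval of -0.16 to 0.03, and it did not pass (limma adjusted p = 1.00). An exact two-sided permutation test gave p = 0.1, the smallest that 3 against 3 samples allow. The SD of Hnf4a within groups was low, at the 6.05th percentile of all genes. The unadjusted p was 0.144 in limma and 0.0348 in a linear model that shared no spread across genes, and the adjusted p was 1.00 in both.

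Sox7 and Sox17 are closely related members of the SoxF group, which bind DNA through an HMG box and mark primitive endoderm and its derivatives. The Sox7 log2 signal was 10.01, 10.10 and 10.06 in narrow 1, 2 and 3, against 10.15, 10.08 and 10.09 in wide 1, 2 and 3. The groups overlapped, with the lowest value in narrow 1 and the highest in wide 1. The difference was -0.05 ± 0.04 (SE; 95% interval -0.15 to 0.06; limma adjusted p = 1.00), with an exact two-sided permutation p of 0.4. It was 0.0017 when only the arrays numbered 2 and 3 were used, so its sign rested on the arrays numbered 1.

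Sox17 is also known for its role in definitive endoderm, which forms later. Its log2 signal was 9.70, 9.67 and 9.53 in narrow 1, 2 and 3, against 9.59, 9.52 and 9.61 in wide 1, 2 and 3. The groups overlapped, and narrow 3 lay below narrow 1 and narrow 2. The difference was 0.06 ± 0.06 (SE; 95% interval -0.07 to 0.19; limma adjusted p = 1.00), with an exact two-sided permutation p of 0.3. Without narrow 3 it was 0.11, and without narrow 1 or narrow 2 it was 0.028 or 0.041. The SD of the narrow arrays, 0.093, was the largest of any of the 6 factors in either group.

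Foxa1 is a forkhead factor able to bind sites in closed chromatin. The Foxa1 log2 signal was 9.32, 9.35 and 9.31 in narrow 1, 2 and 3, against 9.16, 9.13 and 9.21 in wide 1, 2 and 3. All narrow arrays lay above all wide arrays, and the same-numbered arrays differed by 0.16, 0.22 and 0.10. The mean was 9.33 ± 0.02 in narrow and 9.17 ± 0.04 in wide cavities (SD, n = 3 each). The difference was 0.16 ± 0.04 (SE; 95% interval 0.07 to 0.25), a fold of 1.05 to 1.19 over that interval. Foxa1 had an unadjusted limma p of 0.00449, and adjusted over all 19938 genes it did not pass (adjusted p = 1.00). In size it was at the 98.1st percentile of the differences of all genes in either direction. The exact two-sided permutation p was 0.1, the smallest possible.

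Foxa3, a forkhead factor related to Foxa1, had log2 signals of 8.92, 8.96 and 8.87 in narrow 1, 2 and 3, against 8.77, 8.90 and 8.89 in wide 1, 2 and 3. The groups overlapped, and wide 1 was the lowest array. The difference was 0.07 ± 0.05 (SE; 95% interval -0.05 to 0.18; limma adjusted p = 1.00), with an exact two-sided permutation p of 0.3. Without wide 1 it was 0.027.

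Cited1 had log2 signals of 11.69, 11.75 and 11.70 in narrow 1, 2 and 3, against 11.70, 11.78 and 11.72 in wide 1, 2 and 3. The groups overlapped, and the arrays spanned 0.089 in all, the narrowest span of the 6 factors. The difference was -0.02 ± 0.04 (SE; 95% interval -0.12 to 0.08; limma adjusted p = 1.00), with an exact two-sided permutation p of 0.6. The interval in folds ran from 0.922 to 1.06. Without wide 2 the difference was 0.0053.

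**Figure D1:**
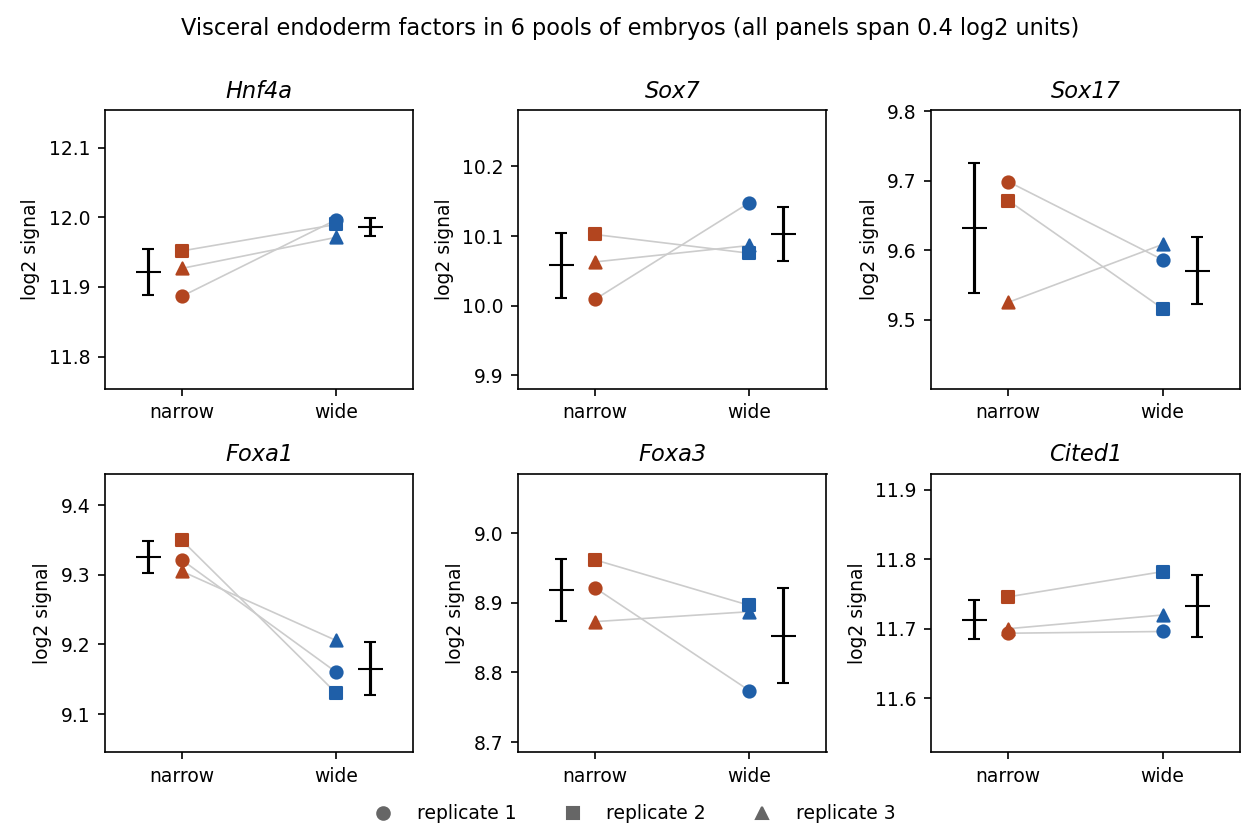
Log2 signal (vertical axis, 0.4 units in each panel) of the 6 factors in narrow and wide cavities. Points are pools, shaped by replicate number and joined in grey by that number, and bars are the mean ± SD of 3 pools. The 3 narrow points of Foxa1 sit between 9.31 and 9.35, above the wide points at 9.13 to 9.21, while those of Hnf4a sit below the wide points and the other genes overlap.

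Over the 6 factors, 0 passed the adjusted threshold of 0.05 in limma, where 0% of 19938 genes did. At an unadjusted p under 0.05 there was 1 of 6, Foxa1, against 3.4% of all genes (678 genes), namely 1.68% higher and 1.72% lower in narrow. With the replicate number as a block it was again 1 of 6, Foxa1, against 7.25% of all genes. The groups did not overlap for 2 of 6, against 7.7% of all genes. Of all genes 4.17% had all narrow arrays above all wide arrays, as Foxa1 did, and 3.54% had them below, as Hnf4a did. The 6 genes were picked for their known role, but with earlier results of these data known, so these counts are a description. Differences were positive for 3 and negative for 3 factors. Their median was 0.021, beside 0.0011 over all genes.

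**Figure D2:**
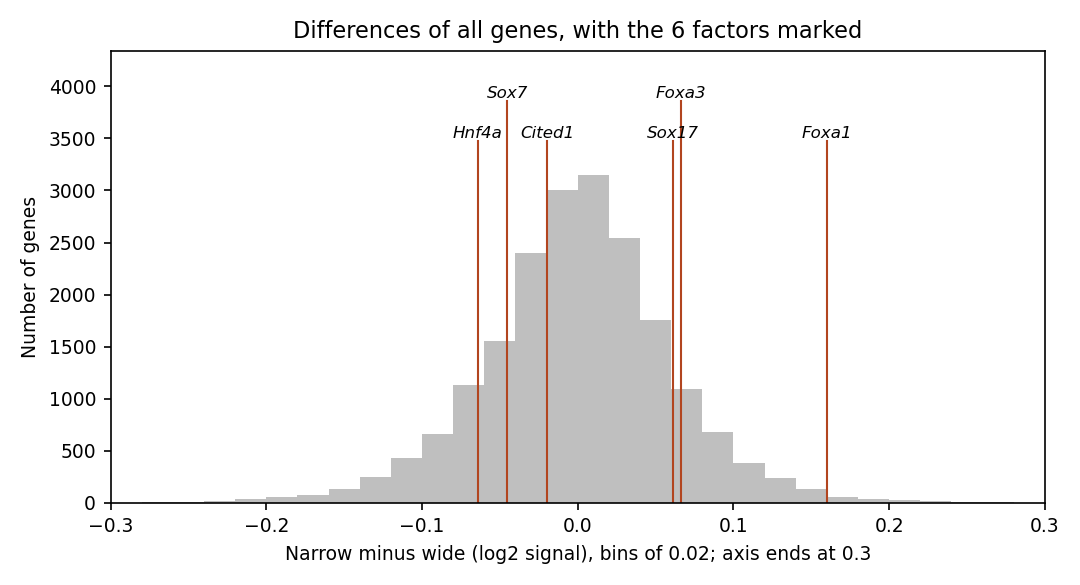
Number of genes (vertical axis) by difference between cavities (narrow minus wide, log2 signal, bins of 0.02), with lines at the 6 factors. Hnf4a, Sox7, Cited1, Sox17 and Foxa3 lie between -0.06 and 0.07, in the body of the distribution of all genes, and Foxa1 at 0.16 lies in its upper tail. The axis ends at 0.3 on either side, and some genes lie beyond it.

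Foxa1 was also set against its relative Foxa3 within each array. The log2 signal of Foxa1 minus that of Foxa3 lay between 0.388 and 0.432 in narrow and between 0.234 and 0.386 in wide pools, a difference of 0.094. The groups were apart by a narrow gap only. The exact two-sided permutation p was 0.1, the smallest possible, and 0.214 after Benjamini-Hochberg adjustment over the 15 pairs of factors compared. Of the 15 pairs 7 did not overlap between cavities, and 5 of the 7 held Foxa1, so the pair with Foxa3 was not particular. Those 5 are all the pairs that hold Foxa1, so they restate its separation between cavities. The pairs share genes, and the share over all pairs of genes was not computed, so the count is only a description. The largest change was that of Hnf4a minus Foxa1, at -0.22. Sox17 minus Foxa3 differed by -0.0049 between cavities (exact permutation p = 0.9). A shift of a whole array leaves such values as they are.

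**Figure D3:**
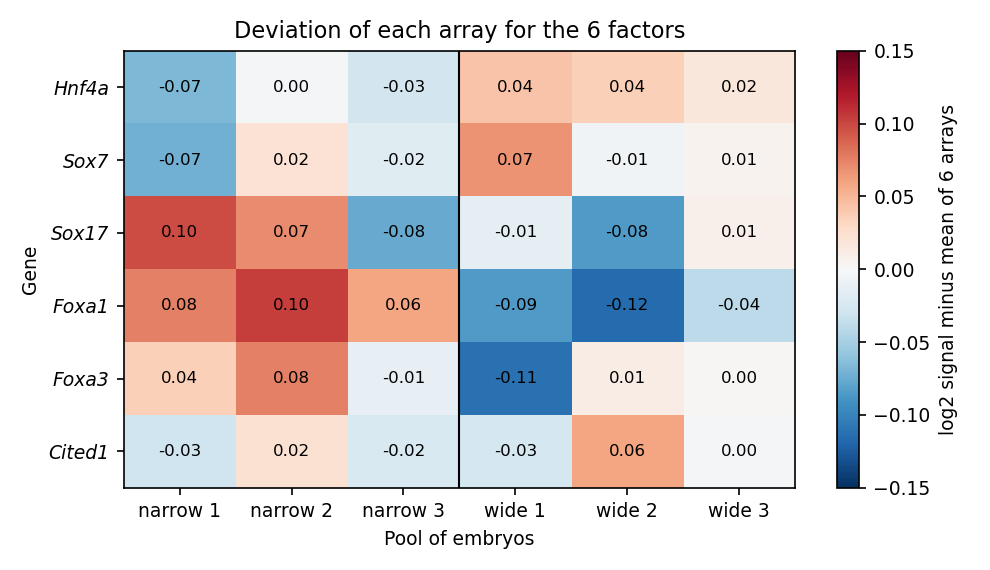
Log2 signal of each factor (rows) in each pool (columns), minus its mean over the 6 arrays, in colour and as a number. Foxa1 is positive in all narrow and negative in all wide pools, and Hnf4a and Sox7 are both lowest in narrow 1 and highest in wide 1.

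Across pools the factors varied in different ways. Hnf4a and Sox7 had the closest profiles, with Pearson's r = 0.84 over the 6 arrays and 0.85 after the group means were removed. Sox17 and Foxa1 had r = 0.61, or 0.67 after removal. Foxa3 and Cited1 had 0.42 and 0.76. Foxa1 and Hnf4a ran opposite to each other, at r = -0.80, and at r = -0.005 after removal. These values describe 6 arrays that share their scaling and, by replicate number, may share more.

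Likeness was sought among genes whose spread over arrays was at least the median, with predicted, olfactory, vomeronasal and small RNA genes left out. Of 8182 such genes, those most like Foxa1 were Iftap (r = 0.997) and Kitl, the ligand of the receptor Kit (r = 0.993). Kitl had log2 signals of 8.92, 8.95 and 8.89 in narrow 1, 2 and 3, against 8.66, 8.65 and 8.73 in wide 1, 2 and 3. Its difference was 0.24 ± 0.04 (SE; limma adjusted p = 1.00). As Kitl was picked for its likeness to Foxa1 over these arrays, its separation of narrow from wide follows largely from that choice and is no further result. For Hnf4a the closest were Igflr1 (0.991) and Unc13c (0.981), and for Sox7 they were Dnase1 (0.992) and Trappc6a (0.988). For Sox17 they were Zc2hc1c (0.975) and Gemin7 (0.963), for Foxa3 Chrna2 (0.996) and Eya2 (0.988), and for Cited1 Magea3 (0.989) and Ddx60 (0.989). With 6 arrays high values are common: r was over 0.9 for 23 to 124 genes per factor. The spread of Hnf4a, Sox7, Foxa3 and Cited1 was itself under the median, and 8183 genes were searched for each of them.

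Relatives of the factors were measured too, and 0 of 5 passed, at p under 0.05 with or without adjustment. Foxa2, the forkhead relative needed in anterior visceral endoderm and node, had log2 signals of 9.28, 9.42 and 9.47 in narrow 1, 2 and 3, against 9.19, 9.25 and 9.33 in wide 1, 2 and 3. The groups overlapped, but each narrow array lay above the wide array of its number, by 0.10, 0.17 and 0.14. The difference was 0.13 ± 0.06 (SE; 95% interval -0.01 to 0.28), with an unadjusted limma p of 0.0635. With the replicate number as a block the interval excluded 0 and the unadjusted p was 0.0100. The means of Foxa1, Foxa2 and Foxa3 were thus all higher in narrow, with only Foxa1 at an unadjusted p under 0.05 without the block. Sox18, the remaining SoxF gene, differed by 0.02 ± 0.05 and Hnf4g, the paralog of Hnf4a, by -0.04 ± 0.11. Cited2 differed by 0.005 ± 0.04 and Cited4 by 0.06 ± 0.07.

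Of 6 other regulators of visceral endoderm, 0 passed, at p under 0.05 with or without adjustment. The median difference was -0.0075, between -0.03 and 0.13. Gata4, a zinc finger factor of extraembryonic endoderm, differed by -0.03 ± 0.06 (95% interval -0.18 to 0.11). Gata6, which acts in the first choice of endoderm over epiblast, differed by -0.01 ± 0.05. Dab2, an endocytic adaptor needed for the order of the endoderm layer, differed by -0.02 ± 0.04. The highest of this list was Foxa2, given above, the 1 of 6 with an unadjusted p under 0.05 with the replicate block.

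Among 7 secreted protein genes that depend on Hnf4a in visceral endoderm, 0 passed after adjustment and 1 had an unadjusted p under 0.05. This was Trf, which encodes transferrin, with log2 signals of 11.15, 11.10 and 11.10 in narrow 1, 2 and 3, against 11.01, 10.87 and 10.94 in wide 1, 2 and 3. All narrow arrays lay above all wide arrays, the opposite order to Hnf4a. Its difference was 0.18 ± 0.05 (SE), with an unadjusted limma p of 0.00573 (adjusted p = 1.00). Rbp4, the retinol carrier, differed by 0.18 ± 0.09, and by 0.09, 0.28 and 0.16 in the same-numbered pairs. With the replicate number as a block 2 of 7 had an unadjusted limma p under 0.05, against 7.25% of all genes. These were Trf at 0.00295 and Rbp4 at 0.00910, and 0 passed after adjustment. Ttr, which carries thyroid hormone, differed by -0.05 ± 0.04. Apoa1, Apoa4, Apob and Afp differed by -0.01 to 0.04. The median of the list was 0.016.

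**Figure D4:**
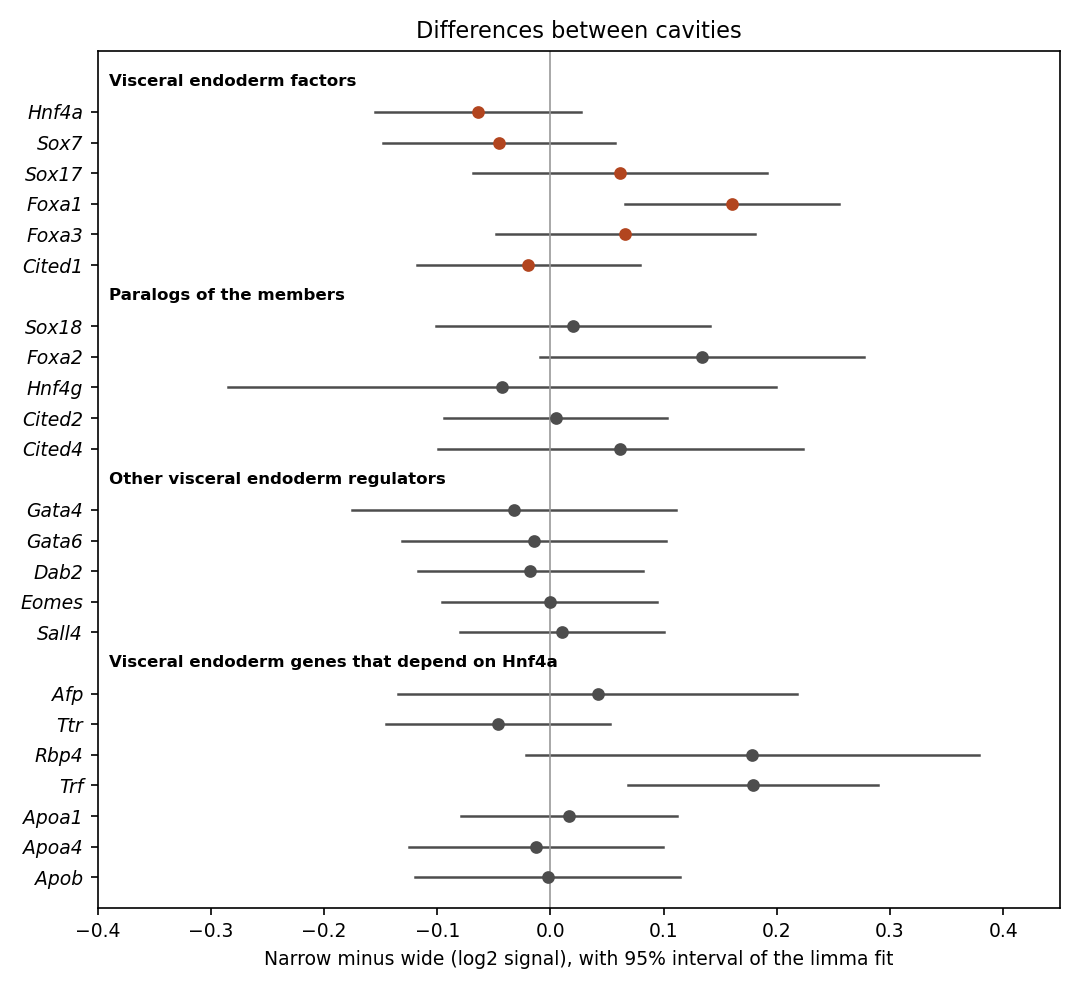
Difference between cavities (horizontal axis, narrow minus wide, log2 signal) with the 95% interval of the limma fit, for the 6 factors in red and the related genes in grey. The intervals of Foxa1, from 0.07 to 0.25, and Trf lie above 0, and those of the other genes shown include 0.

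Surface and signalling genes of visceral endoderm were measured as markers of that tissue. Of 5, 0 passed with or without adjustment, and their mean log2 signal lay between 11.14 and 11.26 in narrow and between 11.12 and 11.24 in wide pools. Bmp2, a ligand made by visceral endoderm, differed by 0.14 ± 0.06, with all narrow arrays above all wide arrays, and had an unadjusted p of 0.0322 with the replicate block. Lrp2, an endocytic receptor, differed by -0.07 ± 0.07 and Ihh by 0.08 ± 0.10. The mean over these genes and the 7 above, 12 in all, was 11.53, 11.57 and 11.52 in narrow 1, 2 and 3 and 11.49, 11.50 and 11.51 in wide 1, 2 and 3, higher in every narrow pool. The genes did not share this: 6 had positive and 6 negative differences, with a median of 0.0070 and a mean of 0.039, and Rbp4, Trf and Bmp2 had the highest values. Relative to the mean of the 12 genes in each array, Foxa1 differed by 0.12, with an unadjusted limma p of 0.0184, and Hnf4a by -0.10, with an unadjusted limma p of 0.0365. Sox7 differed by -0.08, with an unadjusted limma p of 0.102. This scaling lowers the difference of every gene by 0.039. Under it 2 of 6 factors had an unadjusted p under 0.05, against 6.58% of all genes, which were 3.4% without it. The median of the 6 factors was then -0.018, below 0. None passed after adjustment (adjusted p from 0.754 to 0.927).

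Parietal endoderm, the sister tissue that also expresses Sox7 and Sox17, had 9 of 9 markers measured, 0 of which passed with or without adjustment. Their mean log2 signal lay between 10.70 and 10.75 in narrow and between 10.68 and 10.73 in wide pools. Differences of the 9 markers were positive for 6 and negative for 3, with a median of 0.018. Thbd, a thrombin receptor of that tissue, differed by 0.13 ± 0.06, Vim by -0.09 ± 0.05 and Snai1 by 0.06 ± 0.05. For 7 epiblast markers 0 passed, and the mean lay between 11.08 and 11.17 in narrow and between 11.16 and 11.17 in wide pools. Sox2 differed by -0.09 ± 0.05, with all narrow arrays below all wide arrays, Nanog by -0.16 ± 0.09 and Tdgf1 by -0.09 ± 0.06. These were the markers with the smallest unadjusted p. The 7 ran from -0.16 to 0.04, 1 positive and 6 negative, with a median of -0.023. For 6 extraembryonic ectoderm markers 0 passed after adjustment and 1, Bmp4 at -0.21 ± 0.08, had an unadjusted p under 0.05. All narrow arrays of Bmp4 lay below all wide arrays. Tfap2c differed by 0.09 ± 0.05, with all narrow arrays above all wide arrays, and Cdx2 by -0.10 ± 0.06. Of all genes 7.7% did not overlap between the groups. The 6 markers had 2 positive and 4 negative differences, with a median of -0.022. The mean of these 6 lay between 10.82 and 10.93 in narrow and between 10.90 and 10.92 in wide pools. With the replicate block 1 parietal endoderm marker, Thbd (unadjusted p of 0.0274), and 1 epiblast marker, Nanog (0.0160), had an unadjusted p under 0.05. Of the extraembryonic ectoderm markers 2 did, Bmp4 (0.000973) and Cdx2 (0.0264), and 0 in these 3 lists passed after adjustment. Of all genes 7.25% had an unadjusted p under 0.05 with the block. The part of tissue shares in the values of Foxa1 and Hnf4a was not tested. The scaling to 12 visceral endoderm genes is no such test, as 7 of them depend on Hnf4a and their differences had both signs.

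**Figure D5:**
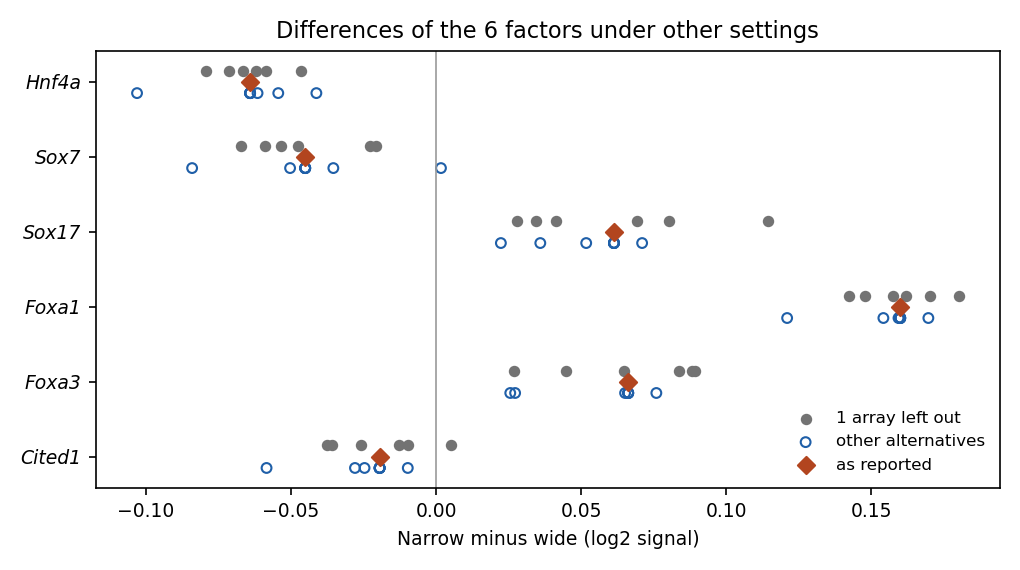
Difference between cavities (horizontal axis, narrow minus wide, log2 signal) of each factor as reported (diamonds), with 1 array left out (grey points) and under the other alternatives (open circles). Foxa1 stays between 0.12 and 0.18 and Hnf4a below 0, whereas a point of Sox7 and a point of Cited1 lie above 0.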

How the data were processed

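The deposited values are log2 signals, 1 per array feature and sample. The log2 scale was read from their range, 4.33 to 14.31. The array medians ran from 7.62 to 7.67, a span similar to the smaller differences given here. No further scaling was applied. With each array centred on its median, the median difference of the 6 factors was 0.031 instead of 0.021. The sources used here name no software, background correction or normalization. Gene names came from the platform annotation. Of 28853 features, 21789 named 1 gene, and the feature with the highest mean was used for each of 19938 genes. Narrow minus wide was tested for all genes with limma 3.58.1 (lmFit and eBayes, R 4.3.3), two-sided, on 6 arrays without a covariate, with Benjamini-Hochberg adjustment over all genes. The scripts were tested on simulated data.

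The factors and lists were chosen with earlier results of these data known. Named were all factors and paralogs, up to 3 genes per other list by smallest p, and the 2 genes most correlated with each factor, with olfactory, vomeronasal, small RNA and predicted genes left out. Apoa1, Apoa4, Apob and Afp were named after their values were seen. The motifs were chosen after the sequences were seen.

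Deviations from group means over all genes correlated at 0.516, 0.176 and 0.272 between same-numbered arrays. As each was over 0.1, same-numbered samples were treated as pairs in the blocked fit. This choice was made on the same data, and the labels do not say what a replicate number stands for. Narrow 2 and wide 3 had 0.178, no less than the 0.176 of narrow 2 and wide 2, so the pairing is uncertain.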

Additional observations from a re-analysis of the deposited data

How the results depend on the processing

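Alternatives were a replicate block, leaving out each array, only the arrays numbered 2 and 3, a filter on dim genes, more scaling, all rows per gene and other variance models. Scaling to visceral endoderm genes was added after seeing the data. Under all of them 0 of the 6 factors and 0 genes passed. The smallest adjusted p of any gene was 0.0838, with the block. The 678 genes at an unadjusted p under 0.05 became 1446 with the block (7.25% of genes), 384 of the 9969 above the 50th percentile of signal and 1311 relative to visceral endoderm genes (6.58%). Leaving out 1 array gave 497 to 990. The median of the 6 factors was 0.0021 to 0.038 without 1 array, and 0.014 in the arrays numbered 2 and 3. Of 90 values of the factors, 88 had the reported sign, and all stayed on the same side of the threshold. The exceptions were Sox7, at 0.0017 in the arrays numbered 2 and 3, and Cited1, at 0.0053 without wide 2, within a range of -0.038 to 0.0053 without 1 array. The causes were not tested. Foxa1 ranged from 0.12 to 0.18, with an unadjusted p from 0.00212 to 0.0225 in 15 of 15 alternatives and 0.00681 with the replicate block. The block changed no call of a factor. Background, not measured, limits dim genes such as Hnf4g.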
